A study of Mus musculus with 8 samples.

Results

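Dbx1 and 8 transcription factors that set regional identity in the cerebral cortex, Pax6, Sp8, Emx1, Emx2, Lhx2, Dmrta2, Nr2f1 and Nr2f2, were followed in RNA of embryonic mouse cortex with and without Taf8. The 9 genes were found by Entrez number among 27179 counted genes. Dbx1 was chosen by its measured log2 fold change, because of its large difference between the groups, so its values are a description with no test, and the other 8 were picked for their role in regional patterning. Poly(A) RNA was sequenced from 4 Taf8-deleted embryos, genotype Taf8 -/lox in the labels, and from 4 wild-type embryos, genotype Taf8 +/+, 1 library per embryo. The Taf8 protein is part of TFIID, which recognises the core promoters of RNA polymerase II genes. The sources used here do not give the age of the embryos, the Cre driver that recombined the lox allele or the cells it acted in.

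Cortical progenitors line the ventricle as a sheet, and each position in that sheet is read from graded transcription factors. Signalling centres at the edges of the sheet set the grades: FGF from the rostral midline, WNT and BMP from the cortical hem at the caudomedial edge, and an antihem at the border with the subpallium. Pax6 and Sp8 are known to be high rostrally, Emx2 and Dmrta2 caudomedially and Nr2f1 caudolaterally, while Lhx2 and Emx1 mark the pallium as a whole. Dbx1 marks progenitors of the septum and of the ventral pallium beside the antihem, which give rise to some Cajal-Retzius cells, and in the spinal cord it marks progenitors of ventral interneurons. In whole-tissue RNA, fewer cells that express a gene and less RNA of it per cell cannot be told apart.

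Promoter windows from RefSeq (GRCm38.p6, the sequence of mm10) run from 250 bases before to 50 bases after an annotated start, and all 9 genes matched, with 14 windows in all. Those of the gene with the largest difference of the 9, of the gene with the largest fall, and of a gene that lay beside a rising antisense gene are shown 5′ to 3′ on the strand of the gene. Capitals mark 3 promoter elements on either strand: the TATA box, searched as TATAAA, the box spelled CCAAT, and the GC box, searched as GGGCGG.
Dbx1, chr7:49636786-49637085, minus strand: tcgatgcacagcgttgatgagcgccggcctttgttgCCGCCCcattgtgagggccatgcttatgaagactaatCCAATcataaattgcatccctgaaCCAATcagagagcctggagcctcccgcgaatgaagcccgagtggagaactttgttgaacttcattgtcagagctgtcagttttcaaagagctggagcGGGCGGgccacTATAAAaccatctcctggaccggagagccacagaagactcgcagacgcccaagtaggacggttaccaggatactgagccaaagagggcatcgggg
Nr2f1, chr13:78198824-78199123, minus strand: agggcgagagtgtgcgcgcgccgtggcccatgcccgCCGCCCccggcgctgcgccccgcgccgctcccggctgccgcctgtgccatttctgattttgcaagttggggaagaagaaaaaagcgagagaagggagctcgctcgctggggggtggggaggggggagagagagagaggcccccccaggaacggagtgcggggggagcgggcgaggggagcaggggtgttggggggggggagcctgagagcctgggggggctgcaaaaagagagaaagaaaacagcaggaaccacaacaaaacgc
Emx2, chr19:59458440-59458739, plus strand: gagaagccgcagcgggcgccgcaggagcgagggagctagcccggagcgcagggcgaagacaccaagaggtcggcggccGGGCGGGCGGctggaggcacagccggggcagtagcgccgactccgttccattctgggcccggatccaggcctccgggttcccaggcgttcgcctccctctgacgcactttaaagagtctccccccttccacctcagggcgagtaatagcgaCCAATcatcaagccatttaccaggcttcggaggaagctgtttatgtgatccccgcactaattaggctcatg
The Dbx1 window holds 1 TATA box, whose first base lies 45 bases before the annotated start, with 2 CCAAT boxes and 2 GC boxes. The Nr2f1 window holds 1 GC box and the Emx2 window 2 overlapping GC boxes and 1 CCAAT box. TATAAA on either strand is in 13.6% of 32851 RefSeq windows, CCAAT in 37.4% and GGGCGG in 35.7%. Among the 9 genes, TATAAA was found in the Dbx1 window and in 1 of the 3 windows of Sp8. The letters TAATTA, a core that many homeodomain proteins bind, are in the windows of Emx2 and of Sp8 and in 5.29% of all windows, and the E box CANNTG is in 72.3%. A match is a run of letters and not a measured site.

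Taf8 itself had 0.79, 0.75, 0.49 and 0.55 CPM (counts scaled to library size) in Taf8-deleted replicates 1 to 4, against 38.49, 35.01, 32.02 and 33.66 CPM in wild-type replicates 1 to 4. Total counts ran from 26312505 to 65523487 per library. The cortical neuron markers Neurod2 and Neurod6 were present in both groups, Neurod2 at 221 ± 14.6 CPM in Taf8-deleted and 394 ± 16.2 CPM in wild-type cortex, and Neurod6 at 217 ± 30.3 CPM in Taf8-deleted and 556 ± 86.6 CPM in wild-type cortex (SD, n = 4 each). Choroid plexus markers were highest in 2 libraries, with a summed 1283 CPM in Taf8-deleted replicate 1 and 442 CPM in wild-type replicate 4. The others held 22.6 to 218 CPM, with Taf8-deleted replicates 3 and 2 next at 218 and 95.4 CPM. Wild-type replicates 1 to 3 share the first part of their animal number, 408, and no first part is common to deleted and wild-type animals, so genotype and a litter or batch behind these numbers cannot be told apart. Across all genes 59.2% passed an adjusted p of 0.05, 29.5% as higher and 29.6% as lower, and the libraries of the groups did not overlap in 53.6% of genes, so a call alone says little about any 1 gene.

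Dbx1 was present at a low level in wild-type cortex and was 14.4-fold higher in Taf8-deleted cortex. This homeobox gene (Entrez gene 13172, chromosome 7, 49631499 to 49636835, minus strand) had 14.2, 17.0, 16.2 and 19.4 CPM in Taf8-deleted replicates 1 to 4, against 1.33, 1.32, 1.09 and 0.92 CPM in wild-type replicates 1 to 4. The lowest Taf8-deleted library lay far above the highest wild-type library. Behind these levels were 433 to 1027 counts per Taf8-deleted library and 35 to 70 counts per wild-type library. The log2 fold change of 3.85 (SE 0.14) was exceeded by 11 of 15649 genes. Per kilobase of gene length, Dbx1 averaged 8.04 ± 1.03 CPM in Taf8-deleted and 0.561 ± 0.0946 CPM in wild-type cortex (SD, n = 4 each), above 47.4% of tested genes in Taf8-deleted and above 13.4% in wild-type cortex. It was the lowest of the 9 genes in wild-type cortex and passed Sp8 in Taf8-deleted cortex.

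**Figure D1:**
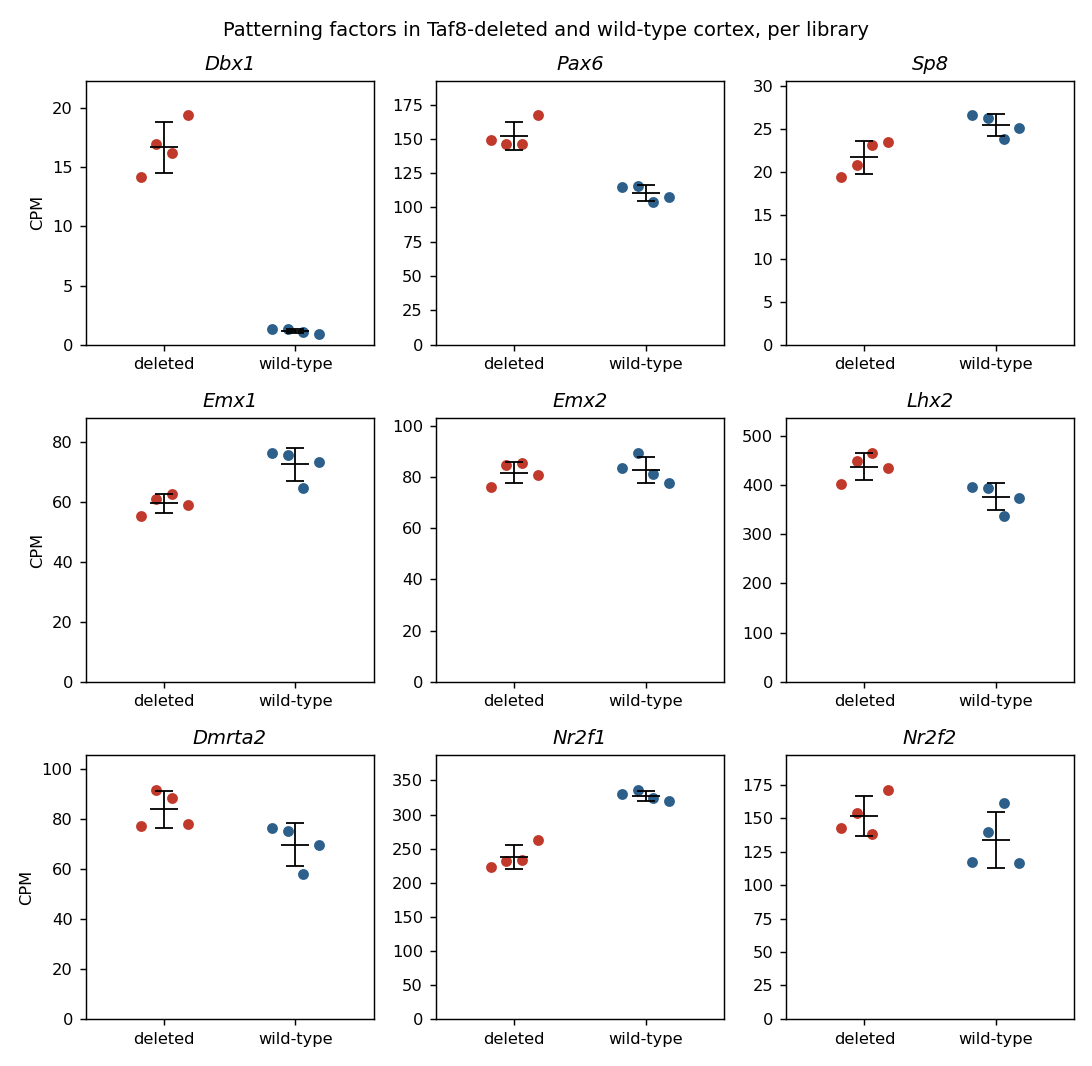
Level in CPM of the 9 genes in each library, with Taf8-deleted libraries (red) left of wild-type libraries (blue), a bar for the mean and whiskers for the SD of 4 libraries. Dbx1 lies at 14.2 to 19.4 CPM in Taf8-deleted and 0.92 to 1.33 CPM in wild-type libraries, and among the other genes the groups of Emx2 and Nr2f2 overlap.

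Neither tested gene beside Dbx1 was called higher. Nav2, a gene of neurite outgrowth and the nearest tested gene on 1 side at 21408 bases, fell to 24.8 ± 2.64 CPM in Taf8-deleted cortex, against 58.9 ± 6.97 CPM in wild-type cortex (log2 fold change -1.25, edgeR adjusted p = 1.84e-06). The nearest tested gene on the other side, Htatip2, lies 122209 bases away and had 0.964 ± 0.256 CPM in Taf8-deleted and 0.618 ± 0.175 CPM in wild-type cortex, which did not pass (adjusted p = 0.0574). Dbx2, the paralogue of Dbx1, was too low to test, at 0.00 to 0.16 CPM in Taf8-deleted and 0.03 to 0.20 CPM in wild-type libraries.

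The spinal and hindbrain homeobox list, which holds Evx1, Pax2, Pax7, En1 and other genes of neural tube progenitors and interneurons, was near the limit of detection. Of its 17 genes, 2 passed the count filter, Nkx2-2 and Irx3, and edgeR called 0 of them, also 0 at an unadjusted p under 0.05 and 0 with DESeq2 or limma. With no count filter 2 of the list were lower, and leaving out single libraries gave up to 2 lower. The list summed to 2.11 to 3.67 CPM in Taf8-deleted and 2.06 to 4.73 CPM in wild-type libraries. Evx2 and Hoxa2 had no count in any library, where 3 counts would be 0.0469 to 0.112 CPM (counting error only). Diencephalon markers, for a tissue that borders the cortex and also expresses Dbx1, summed to 91.2 to 108 CPM in Taf8-deleted and 80.5 to 143 CPM in wild-type libraries, with 1 of 12 tested genes higher and 2 lower, or 1 lower without the 2 libraries rich in choroid plexus RNA. The higher one was Barhl2, a homeobox gene, at 14.1 ± 2.23 CPM in Taf8-deleted and 7.59 ± 0.963 CPM in wild-type cortex (adjusted p = 0.000145). The lower ones were Vax1 (log2 fold change -0.36) and Olig3 (log2 fold change -1.62), whose wild-type level varied by 1.77 CPM (SD) around 2.05 CPM.

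Markers of other cell types also differed between libraries. Meningeal markers summed over 14 genes had 159, 203, 230 and 85.7 CPM in Taf8-deleted replicates 1 to 4, against 64.6, 58.3, 52.4 and 92.8 CPM in wild-type replicates 1 to 4. Choroid plexus markers summed over 10 genes had 1283, 95.4, 218 and 22.6 CPM in Taf8-deleted replicates 1 to 4, against 28.2, 29.6, 34.3 and 442 CPM in wild-type replicates 1 to 4. The groups overlapped for both sums, and the part of these cells in the difference of Dbx1 was not tested. Without the 2 libraries rich in choroid plexus RNA the log2 fold change of Dbx1 was 3.84. That fit kept Taf8-deleted replicates 2 and 3, whose choroid plexus sums lay above those of wild-type replicates 1 to 3.

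The 5 genes whose profile over the 8 libraries was most like that of Dbx1, out of 13913 genes with a mean of at least 1 CPM, were Kdm4d, Dok2, H4c9, Gm10638 and H2bc6. Likeness was the root mean square difference of log2 CPM after centring each gene, 0.17 for Kdm4d, a histone lysine demethylase, 0.26 for the adaptor gene Dok2, 0.26 for H4c9, 0.27 for the predicted gene Gm10638 and 0.29 for H2bc6. With 2 groups, this measure mostly finds genes whose difference between the groups is like that of Dbx1, here log2 fold changes of 3.55 to 4.01. Shared control of these genes was not tested. Kdm4d had 2.06 to 2.597 CPM in Taf8-deleted and 0.11 to 0.20 CPM in wild-type libraries. Kdm4d, Dok2 and H2bc6 averaged 0.14, 0.69 and 0.76 CPM in wild-type cortex, so they reached the mean of 1 CPM only through the Taf8-deleted libraries. H4c9 and H2bc6 are histone genes with near-identical copies, which makes their reads uncertain.

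The other 8 factors stayed near their wild-type levels and moved in both directions. All 9 genes passed the count filter. Of the 8, Pax6, Lhx2 and Dmrta2 rose, Sp8, Emx1 and Nr2f1 fell, and Emx2 and Nr2f2 did not pass (edgeR quasi-likelihood test, adjusted p over all 15649 genes). Thus 6 of 8 were called where 59.2% of all genes were, and 6 of 8 had groups that did not overlap where 53.6% of all genes did, shares near the background. Their median absolute log2 fold change was 0.25, against 0.27 over all tested genes, and their median log2 fold change was 0.08, against 0.01. With each library scaled to the mean of 20 radial glia markers, which moved the median of all genes to -0.22 and the share of called genes that were higher to 21.3%, against 50% without that scaling, Pax6 was the 1 of 8 that was higher, 4 were lower, and Lhx2 and Dmrta2 were at 0.00 and 0.04 on the log2 scale.

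**Figure D2:**
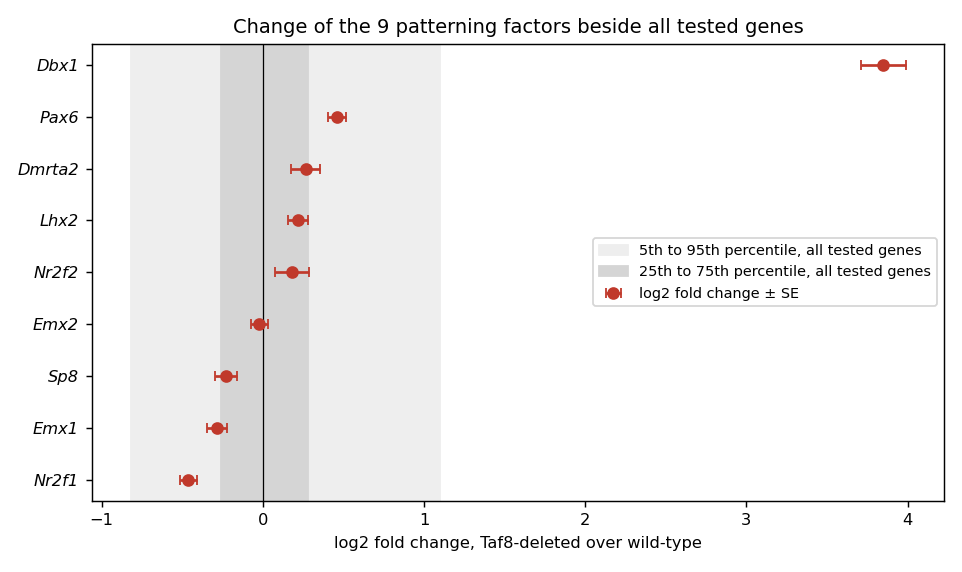
Log2 fold change of Taf8-deleted over wild-type cortex for the 9 genes (points, whiskers are the SE of the edgeR fit) against the range of all 15649 tested genes (grey bands). Dbx1 lies at 3.85, far outside both bands, and the other 8 lie between -0.46 and 0.46, inside the wider band.

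Of the factors known to be high rostrally, Pax6 rose and Sp8 fell. Pax6, a paired-domain and homeodomain factor of radial glia (Entrez gene 18508, chromosome 2, 105668896 to 105698410, plus strand), had 149, 146, 146 and 167 CPM in Taf8-deleted replicates 1 to 4, against 115, 116, 104 and 108 CPM in wild-type replicates 1 to 4. All Taf8-deleted libraries lay above all wild-type libraries, with replicate 4 standing above the other three of its group. The change was 1.38-fold (log2 fold change 0.46, SE 0.06, adjusted p = 4.51e-05).

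Sp8, a zinc finger factor that acts with rostral FGF signalling and is also expressed in interneurons of the ganglionic eminences (Entrez gene 320145, chromosome 12, 118846288 to 118852578, plus strand), had 19.5, 20.8, 23.2 and 23.5 CPM in Taf8-deleted replicates 1 to 4. The wild-type replicates 1 to 4 had 26.6, 26.3, 23.9 and 25.2 CPM. The groups lay next to each other without overlap, and Sp8 was 1.17-fold lower (log2 fold change -0.23, SE 0.07, adjusted p = 0.0162). Without the 2 libraries rich in choroid plexus RNA, Sp8 lost its call (log2 fold change -0.18, edgeR adjusted p = 0.0729). Of its relatives, Sp5 rose to 4.07 ± 1.29 CPM in Taf8-deleted cortex, against 2.31 ± 0.171 CPM in wild-type cortex (adjusted p = 0.00914), and Sp9 did not pass (adjusted p = 0.192). The relatives of Pax6, Pax3 and Pax7, were too low to test.

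Among the factors of the whole pallium, Lhx2 rose and Emx1 fell. Lhx2, a LIM-homeodomain factor that keeps cortical progenitors from hem fate (Entrez gene 16870, chromosome 2, 38339271 to 38369737, plus strand), had 402, 449, 466 and 434 CPM in Taf8-deleted replicates 1 to 4, against 397, 395, 338 and 375 CPM in wild-type replicates 1 to 4. The groups were separated by a narrow gap, and the rise was 1.16-fold (log2 fold change 0.22, SE 0.06, adjusted p = 0.0104), a rise that turned to -0.004 on the log2 scale when libraries were scaled to radial glia markers. Its relative Lhx9 had 26.6 ± 2.25 CPM in Taf8-deleted and 31.9 ± 6.15 CPM in wild-type cortex and did not pass (adjusted p = 0.0837).

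Emx1, a homeodomain factor of pallial progenitors and their neurons (Entrez gene 13796, chromosome 6, 85187931 to 85204463, plus strand), had 55.1, 61.0, 62.6 and 58.8 CPM in Taf8-deleted replicates 1 to 4 and 76.3, 75.5, 64.4 and 73.3 CPM in wild-type replicates 1 to 4. The lowest wild-type library, replicate 3, lay just above the highest Taf8-deleted one. Emx1 was 1.22-fold lower (log2 fold change -0.28, SE 0.06, adjusted p = 0.00234).

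Of the factors known to be high caudomedially, Emx2 showed no detectable change and Dmrta2 rose by a small step. Emx2, the paralogue of Emx1 (Entrez gene 13797, chromosome 19, 59458690 to 59465357, plus strand), had 76.2, 84.6, 85.4 and 80.9 CPM in Taf8-deleted replicates 1 to 4 and 83.4, 89.6, 81.2 and 77.6 CPM in wild-type replicates 1 to 4. The groups overlapped throughout. Its log2 fold change was -0.02, with a 95% interval of -0.15 to 0.11 (adjusted p = 0.753). With scaling to radial glia markers it was lower (log2 fold change -0.25, edgeR adjusted p = 0.000841).

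Dmrta2, a DMRT-family factor also called Dmrt5 (Entrez gene 242620, chromosome 4, 109977989 to 109983691, plus strand), had 77.2, 91.7, 88.4 and 77.9 CPM in Taf8-deleted replicates 1 to 4, against 76.5, 75.4, 57.8 and 69.4 CPM in wild-type replicates 1 to 4. The lowest Taf8-deleted and the highest wild-type library nearly touched. The 1.20-fold rise (log2 fold change 0.27, SE 0.09, adjusted p = 0.0264) was lost without Taf8-deleted replicate 2 or 3 or wild-type replicate 4 (edgeR adjusted p = 0.0921, 0.0808 and 0.0624) and with scaling to radial glia markers. Its relative Dmrt3, a factor of the medial pallium, rose to 23.9 ± 2.61 CPM in Taf8-deleted cortex, against 17.1 ± 2.598 CPM in wild-type cortex (adjusted p = 0.00422), and Dmrta1 did not pass, at 9.36 ± 1.71 CPM in Taf8-deleted and 7.84 ± 0.697 CPM in wild-type cortex.

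The 2 COUP-TF nuclear receptors behaved differently. Nr2f1, the receptor that sets caudal area identity (Entrez gene 13865, chromosome 13, 78188971 to 78198873, minus strand), had 223, 231, 233 and 263 CPM in Taf8-deleted replicates 1 to 4, against 331, 336, 324 and 320 CPM in wild-type replicates 1 to 4. Every Taf8-deleted library lay well below every wild-type library. At 1.38-fold lower (log2 fold change -0.46, SE 0.05, adjusted p = 2.7e-05) it was the largest fall among the 8, though 29.7% of all tested genes had a larger absolute change.

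Nr2f2, which is high in the caudal telencephalon and in interneurons of the caudal ganglionic eminence (Entrez gene 11819, chromosome 7, 70351946 to 70366746, minus strand), had 143, 154, 138 and 171 CPM in Taf8-deleted replicates 1 to 4, against 118, 140, 161 and 116 CPM in wild-type replicates 1 to 4. The groups overlapped, and the spread within wild-type cortex, an SD of 0.22 on the log2 scale, was above the 0.11 of the median gene. Its log2 fold change was 0.18, with a 95% interval of -0.08 to 0.44 (adjusted p = 0.164). Without wild-type replicate 3 it passed as higher (log2 fold change 0.28, edgeR adjusted p = 0.0138), and with scaling to radial glia markers it was -0.05. Nr2f6, a further member of the family, had 35.8 ± 1.36 CPM in Taf8-deleted and 31.8 ± 3.70 CPM in wild-type cortex and did not pass.

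The order of levels per kilobase was nearly kept. In Taf8-deleted cortex it ran Lhx2 (192 ± 12.1 CPM per kilobase), Nr2f1 (97.7 ± 7.06), Emx1 (50.6 ± 2.76), Pax6 (41.3 ± 2.75), Emx2 (31.5 ± 1.62), Nr2f2 (31.1 ± 3.02), Dmrta2 (28.4 ± 2.49), Dbx1 (8.04 ± 1.03) and Sp8 (4.85 ± 0.431), and the ranges over libraries of Emx2 and Nr2f2, and of Nr2f2 and Dmrta2, overlapped. In wild-type cortex it ran Lhx2 (165 ± 11.96), Nr2f1 (135 ± 3.03), Emx1 (61.7 ± 4.66), Emx2 (31.9 ± 1.94), Pax6 (30.0 ± 1.52), Nr2f2 (27.4 ± 4.36), Dmrta2 (23.7 ± 2.90), Sp8 (5.69 ± 0.274) and Dbx1 (0.561 ± 0.0946), with overlap between neighbours from Emx2 to Dmrta2.

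Genes named as antisense to 3 of the factors, or overlapping them, were read beside them. Emx2os, an antisense RNA gene whose nearer edge lies 54 bases before Emx2, inside the Emx2 window shown above, had 13.3, 11.6, 14.1 and 13.4 CPM in Taf8-deleted replicates 1 to 4, against 3.75, 4.86, 4.21 and 3.47 CPM in wild-type replicates 1 to 4. All Taf8-deleted libraries were far above the wild-type ones, a 3.21-fold rise (log2 fold change 1.68, SE 0.11, adjusted p = 7.62e-07) beside an Emx2 with no detectable change. Per kilobase, Emx2os reached 7.08% to 9.05% of Emx2 in Taf8-deleted and 2.31% to 2.80% in wild-type libraries.

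Pax6os1, which overlaps the start of Pax6 by 1435 bases, had 1.90 to 2.21 CPM in Taf8-deleted and 0.63 to 1.05 CPM in wild-type libraries, a 2.53-fold rise (adjusted p = 8.66e-05) beside the smaller rise of Pax6. Elp4, an Elongator subunit gene whose end overlaps that of Pax6 by 1091 bases, rose 1.81-fold, to 71.8 ± 1.12 CPM in Taf8-deleted cortex, against 39.7 ± 1.30 CPM in wild-type cortex (adjusted p = 7.26e-08). A830082K12Rik, which overlaps Nr2f1 by 857 bases, did not follow the fall of Nr2f1, at 14.1 ± 1.08 CPM in Taf8-deleted and 14.1 ± 1.69 CPM in wild-type cortex (adjusted p = 0.975). The sources used here do not give the strand setting of the counting, so reads of overlapping genes cannot be told apart with certainty.

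**Figure D3:**
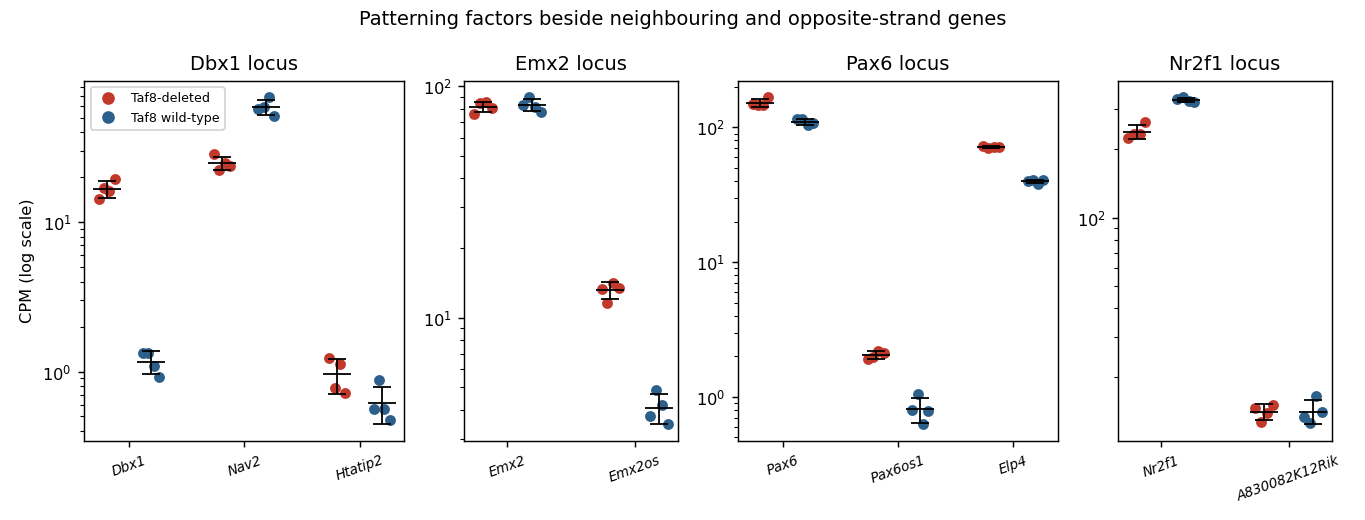
Level in CPM, on a log axis, of 4 factors beside neighbouring or overlapping genes, with Taf8-deleted libraries (red) left of wild-type libraries (blue), bars for means and whiskers for SDs of 4 libraries. Nav2 is lower where Dbx1 is higher, Emx2os is higher where the groups of Emx2 overlap, and A830082K12Rik stays level beside a lower Nr2f1.

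The balance between factors was read as a log2 ratio within each library, which no scaling of the libraries can move. Of 6 pairs tested, 5 differed (exact two-sided permutation test, p = 0.0286, the smallest that 4 against 4 libraries allow, adjusted p = 0.0343 over the 6). Since the changes of the single genes were known when the pairs were chosen, these tests restate them free of scaling. Leaving out any 1 Taf8-deleted library ended all 5 calls (adjusted exact permutation p = 0.0571 to 0.0686). Leaving out any 1 wild-type library ended that of Pax6 to Lhx2. The groups of the 5 pairs are separate with all 8 libraries, so leaving 1 out could neither reverse a direction nor make them overlap. With groups of unequal size another regrouping can differ as much as the true one, so a lost call alone does not show instability. The Emx1 to Emx2 ratio was 0.69 ± 0.01 in Taf8-deleted and 0.95 ± 0.11 in wild-type cortex on the log2 scale (SD, n = 4 each), with the 4 Taf8-deleted libraries between 0.68 and 0.70. The Nr2f1 to Nr2f2 ratio was 1.65 ± 0.07 in Taf8-deleted and 2.31 ± 0.22 in wild-type cortex, so Nr2f1 was 3.14 times as abundant per base as Nr2f2 in Taf8-deleted and 4.95 times in wild-type cortex.

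Pax6 gained on both partners it was set against. The Pax6 to Emx2 ratio was 0.39 ± 0.13 in Taf8-deleted and -0.09 ± 0.06 in wild-type cortex on the log2 scale. Per base of gene length, Pax6 thus exceeded Emx2 in each Taf8-deleted library and lay below it in each wild-type library. In CPM, not divided by length, Pax6 was above Emx2 in both groups, at 104 to 116 against 77.6 to 89.6 CPM in wild-type libraries. The Pax6 to Lhx2 ratio was -2.21 ± 0.14 in Taf8-deleted and -2.45 ± 0.04 in wild-type cortex. Sp8 fell less than Nr2f1, with a Sp8 to Nr2f1 ratio of -4.33 ± 0.08 in Taf8-deleted and -4.57 ± 0.05 in wild-type cortex. The Dmrta2 to Dmrt3 ratio, 1.51 ± 0.12 in Taf8-deleted and 1.73 ± 0.09 in wild-type cortex, overlapped between the groups and did not pass (exact permutation p = 0.0571).

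**Figure D4:**
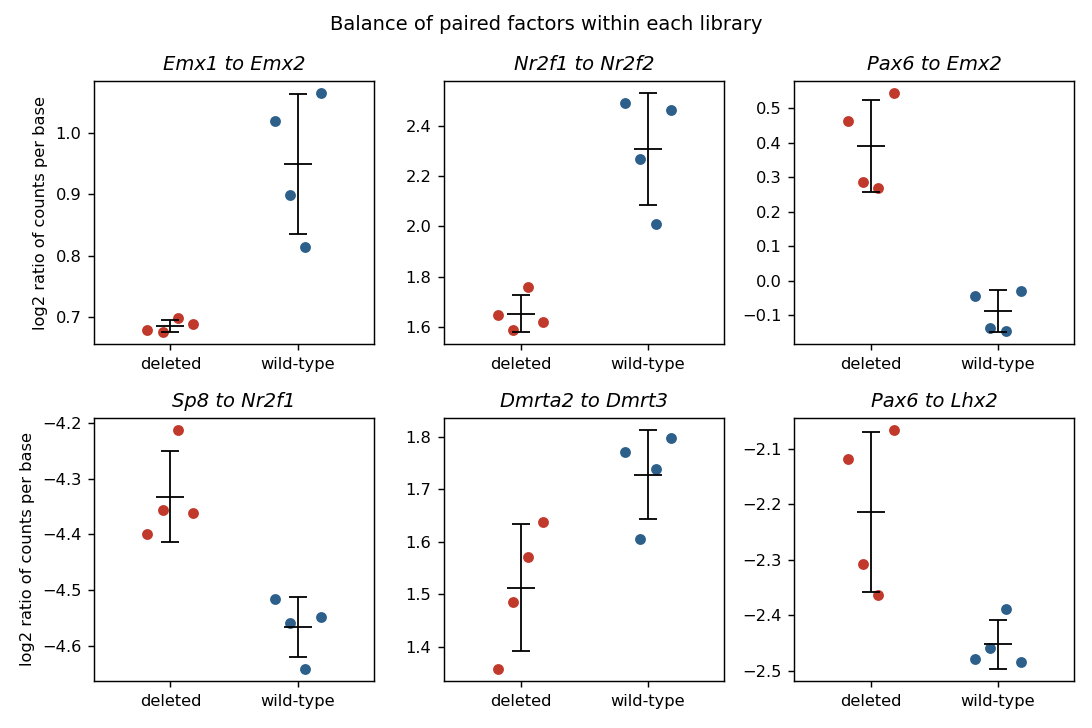
Log2 ratio of counts per base between 2 factors in the same library, for 6 pairs, with Taf8-deleted libraries (red) left of wild-type libraries (blue), a bar for the mean and whiskers for the SD of 4 libraries. The groups are separate in all pairs but Dmrta2 to Dmrt3, and the y axes do not start at 0.

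Genes of the signalling centres were read from lists that leave out the 9 factors. Over all tested genes 29.5% were called higher and 29.6% lower, the shares to set beside every list count. A count near these shares says nothing particular about its list. For the rostral centre and its FGF response, 5 of 16 genes were higher and 6 lower (median log2 fold change -0.02), and 3 were lower without the 2 libraries rich in choroid plexus RNA or with library size alone as the scale. Fgf17, an FGF of the rostral midline, rose to 5.24 ± 0.92 CPM in Taf8-deleted cortex, against 2.26 ± 0.586 CPM in wild-type cortex (adjusted p = 0.000351). Fgfr2, an FGF receptor of radial glia, rose 1.51-fold and Etv4, a transcription factor induced by FGF, rose 1.78-fold. Etv1, of the same factor family and also a gene of deep-layer neurons, fell by 0.61 on the log2 scale.

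Most hem and dorsal midline genes did not pass the test, with 4 of 21 higher and 3 lower (median 0.24). Gli3, which limits ventral fates, rose to 159 ± 4.74 CPM in Taf8-deleted cortex, against 122 ± 9.16 CPM in wild-type cortex, and Zic2 rose 1.47-fold. The WNT ligand genes Wnt7b and Wnt5a fell by 0.57 and 0.63 on the log2 scale. Wnt2b, Wnt3a and Wnt8b, named after their values were seen, did not pass (edgeR adjusted p = 0.995, 0.868 and 0.356). Without Taf8-deleted replicate 4, 9 of the list were higher.

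Of 6 genes of the antihem, the source beside the Dbx1 domain, edgeR called 0 higher and 4 lower (median -0.47), with the same 0 and 4 at an unadjusted p under 0.05 and with DESeq2 or limma, and 1 higher when libraries were scaled by size alone or fitted with a replicate block. The growth factor gene Tgfa fell to 7.65 ± 0.556 CPM in Taf8-deleted cortex, against 14.0 ± 2.33 CPM in wild-type cortex (adjusted p = 0.000101). Egf, Nrg1 and Nrg3, also ligands of the EGF family, fell by 1.12, 0.39 and 0.55 on the log2 scale. Sfrp2, a secreted WNT inhibitor that marks the antihem and has the highest level per kilobase of the 6 in both groups, is named here after its values were seen. It had 34.2 ± 2.79 CPM in Taf8-deleted and 30.2 ± 3.35 CPM in wild-type cortex, a log2 fold change of 0.18 that did not pass (adjusted p = 0.0886).

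Subpallial patterning genes split into 7 of 18 higher and 8 lower (median 0.13), or 3 higher and 8 lower with scaling to radial glia markers. The homeobox genes Dlx6 and Dlx5 rose 1.78-fold and 1.39-fold. Dlx2 and Dlx1, named after their values were seen, were lower (log2 fold change -0.54 and -0.20, edgeR adjusted p = 0.000597 and 0.00425). Lhx6 and Lhx8, of interneurons and cholinergic neurons from the medial ganglionic eminence, fell by 1.07 and 0.88 on the log2 scale. Of Cajal-Retzius markers, a fate that some Dbx1 progenitors take, 4 of 9 were higher and 2 lower (median 0.14). Ebf3 and Ebf2, transcription factors of these cells, rose 2.18-fold and 1.98-fold. Reln, Trp73 and Nhlh2 of the same list did not pass (edgeR adjusted p = 0.132, 0.854 and 0.893), and Calb2 was lower (log2 fold change -0.39). These 4 are named after their values were seen. Lhx1 rose 1.37-fold and Cxcr4, a chemokine receptor, fell by 0.28 on the log2 scale. With scaling to radial glia markers 2 were higher and 3 lower, and 1 was lower without the 2 libraries rich in choroid plexus RNA.

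Regional genes of the cortical plate, the neurons that carry area identity once postmitotic, were mostly lower: edgeR called 17 of 20 lower and 0 higher (median -0.46), with the same counts at an unadjusted p under 0.05. Library size alone as the scale, or leaving out wild-type replicate 3, gave 1 higher. Fezf2 and Sox5, of deep-layer neurons, fell by 0.73 and 1.12 on the log2 scale, Tshz3 by 0.83, and Bcl11b by 0.74. Of the dorsal pallial programme 11 of 16 were lower and 3 higher (median -0.31). The higher ones, named after their values were seen, were Id4, Sox9 and Neurog2. Neurod6 and Neurod2, of postmitotic neurons, fell by 1.36 and 0.83 on the log2 scale. Some genes are on more than 1 list, Tbr1 and Fezf2 among them.

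Radial glia markers, which mark the cells that express most of the 9 factors, rose in 11 cases of 20 and fell in 4 (median 0.24), with a summed 5697 to 5970 CPM in Taf8-deleted and 4617 to 5034 CPM in wild-type libraries. With the radial glia scaling above, 8 were higher and 7 lower. That scale is set by the mean of these same markers and takes out their average change by design, so it cannot show whether they rose. Nes, an intermediate filament gene, rose 1.90-fold and Glul 1.596-fold, while Fabp7 and Tnc fell by 0.51 and 0.85 on the log2 scale. The sum leans on abundant genes such as Nes and Vim, the latter named after its values were seen. Nes and Vim averaged 979 and 1226 CPM in Taf8-deleted and 515 and 809 CPM in wild-type cortex. The rises of Pax6, Lhx2 and Dmrta2 stand beside this higher sum of a mixed marker list, and its part in them was not tested.

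**Figure D5:**
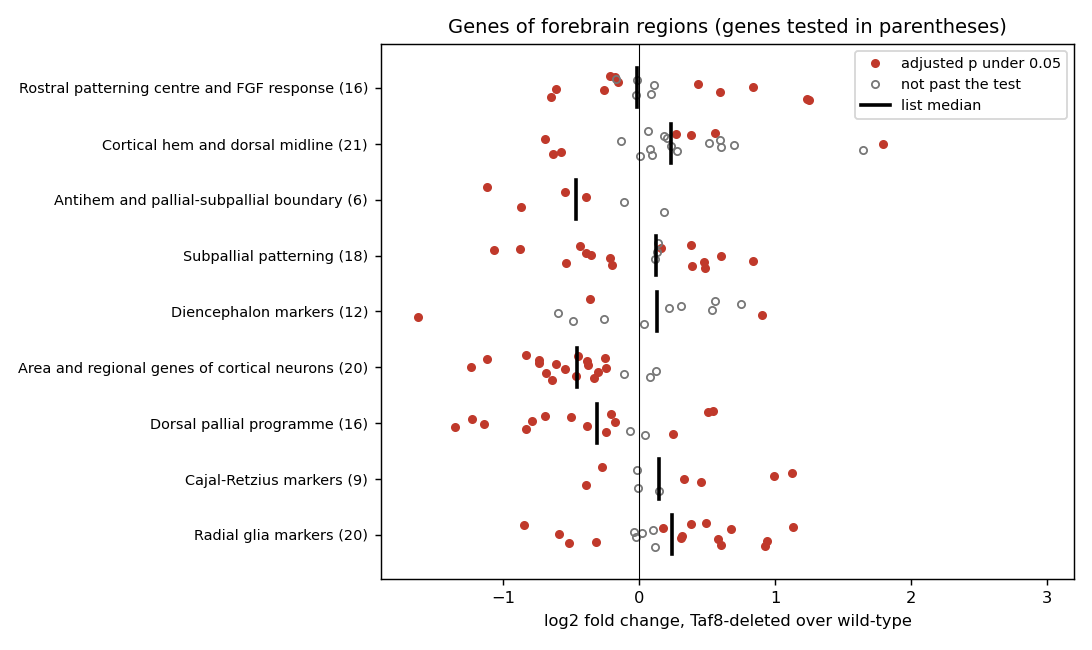
Log2 fold change of Taf8-deleted over wild-type cortex for each tested gene of 9 lists of forebrain regions and cells (filled where the adjusted p is under 0.05), with a bar at the median of the list. Area genes and the dorsal pallial programme have medians of -0.46 and -0.31, antihem genes -0.47 and radial glia markers 0.24.

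Markers of cells that are not neural also moved. Of 13 tested meningeal fibroblast markers, 9 were higher (4 with limma), with Igf2 at 68.7 ± 14.5 CPM in Taf8-deleted and 30.7 ± 9.27 CPM in wild-type cortex and a summed 85.7 to 230 CPM in Taf8-deleted and 52.4 to 92.8 CPM in wild-type libraries. All 12 endothelial and pericyte markers were higher, Vtn among them at 20.6 ± 3.96 CPM in Taf8-deleted and 9.83 ± 0.589 CPM in wild-type cortex, and 4 were higher with scaling to radial glia markers. Of 10 microglia and macrophage markers 6 rose and 1 fell, C1qb among the higher at 7.10 ± 1.32 CPM in Taf8-deleted and 4.31 ± 0.313 CPM in wild-type cortex. Of 9 red blood cell markers 5 rose (none called with scaling to radial glia markers), Hba-a1 among them at 69.2 ± 10.9 CPM in Taf8-deleted and 50.4 ± 5.51 CPM in wild-type cortex, and of 10 choroid plexus markers 1 rose, Kl, at 0.524 ± 0.14 CPM in Taf8-deleted and 0.249 ± 0.108 CPM in wild-type cortex. Their part in the changes of Nr2f2, which vessels and meninges can also express, and of the other factors was not tested.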

How the data were processed

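RNA of 8 embryonic mouse cortices was sequenced as stranded paired-end poly(A) libraries. The authors deposited raw counts per Entrez gene, made with Subread 1.5.0 and featureCounts on mm10 per the submitters' processing notes. The sources used here do not give the annotation, the strand setting or the handling of reads with several positions. Symbols, coordinates and promoter windows came from RefSeq GRCm38.p6; 25275 of 27179 genes had a symbol. The members and gene lists were chosen with earlier results of these data known.

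Genes passing edgeR's filterByExpr (15649) were scaled by TMM and tested with the quasi-likelihood F test (edgeR 4.0.16, R 4.3.3), all 8 libraries, no covariates, Benjamini-Hochberg adjusted p under 0.05. CPM use TMM library sizes. SEs and 95% intervals were derived from that test. Pair ratios used counts plus 0.5 divided by gene length. Named from each list were up to 4 genes with the smallest adjusted p, besides the members, paralogues, antisense partners, Dbx1's neighbours and the 5 genes most like it. Genes said to be named after their values were seen fall outside this rule. The script was tested on simulated data. Alternatives were other scalings, filters and tests (DESeq2 1.42.0, limma 3.58.1), a threshold of 0.01, a replicate block and leaving out libraries; leaving out the 2 libraries rich in choroid plexus RNA was chosen after seeing the data. Each library came from a separate embryo. Total counts ran from 26312505 to 65523487 per library, and floors cover counting error only.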

Additional observations from a re-analysis of the deposited data

Results flagged for a closer look

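Pax6 in Taf8-deleted cortex had 1 library apart from the others of its group: replicate 4 had 167 CPM, where the other replicates had 146 to 149 CPM. Its gap to the nearest library was 0.863 of the range of the group, above the critical value for 4 samples. Of 30 groups examined this was the 1 that passed, and chance gives about 1 in 20.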

How the results depend on the processing

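Dbx1 stayed between 3.62 and 3.91 on the log2 scale under all alternatives tried. Scaling to radial glia markers gave 2113 higher and 7784 lower genes, 1 of the 8 other factors higher, and log2 fold changes of -0.25 for Emx2 (called), -0.0041 for Lhx2, 0.044 for Dmrta2 and -0.049 for Nr2f2. Library size alone gave 0.021 for Emx2. At a threshold of 0.01, 1 factor was higher, and Sp8 (-0.23), Lhx2 (0.22) and Dmrta2 (0.27) were not called. Leaving out each library in turn gave -0.066 to 0.0018 for Emx2, 0.18 to 0.30 for Dmrta2 and 0.10 to 0.28 for Nr2f2. Without the 2 libraries rich in choroid plexus RNA, Sp8 was -0.18. The cause of these shifts was not tested. The replicate block gave 4115 higher and 4170 lower genes and changed no call of the 8 factors. Same-numbered libraries had deviation correlations of -0.464 to 0.0138. These gave no sign of pairing but, being centred within each group, cannot exclude it. The labels do not say that the numbers pair embryos.

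For the 5 pairs that differed, 3 against 3 libraries and sign flips of same-numbered pairs (replicate block) cannot pass by design, which says nothing about stability. Leaving out 1 library gave -0.309 to -0.225 for Emx1 to Emx2, -0.755 to -0.594 for Nr2f1 to Nr2f2, 0.428 to 0.519 for Pax6 to Emx2, 0.194 to 0.256 for Sp8 to Nr2f1 and 0.190 to 0.289 for Pax6 to Lhx2. Adjusted exact permutation p was 0.0429 for the first 4 pairs without any 1 wild-type library, and 0.0571 to 0.0686 for all 5 without any 1 Taf8-deleted library and for Pax6 to Lhx2 without any 1 library. Without the 2 choroid plexus-rich libraries they were -0.22, -0.60, 0.47, 0.26 and 0.20 (adjusted exact permutation p = 0.12), and under the replicate block -0.26, -0.66, 0.48, 0.23 and 0.24 (adjusted exact p = 0.125). Of 684 recomputed list counts, 622 were within 1.5 times. At 35 to 70 counts, Dbx1's wild-type level is the least precise of the 9.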
